A study of Homo sapiens with 6 samples.

Results

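The genes studied here encode Wnt ligands, their receptors and co-receptors, their secreted antagonists, inhibitors of Wnt signaling inside the cell or at its membrane, and the TCF/LEF transcription factors. They were chosen by name, as all rows for a WNT, FZD, DKK or SFRP gene together with LRP5, LRP6, AXIN1, AXIN2, LEF1, TCF7, TCF7L1, TCF7L2, RNF43, ZNRF3, NKD1, NKD2, LGR4, LGR6, ROR1 and ROR2. This gave 53 genes of 20811 in the table. Expression was measured in HuCCT1, a human cell line of intrahepatic cholangiocarcinoma (iCCA), a cancer of the bile ducts within the liver. The HuCCT1/CD90+ cells were transduced with human THY1-CMV-GFP, which carries the gene of the surface protein CD90, and the HuCCT1/CD90- cells with the Lenti-CMV-GFP-2A-Puro-Blank Lentivirus. The names of both vectors carry the CMV promoter, which is active in most cell types. Both lines were transduced at a multiplicity of infection of 40 and both grew in RPMI with serum. Each line has 3 libraries, and neither the labels nor the methods say whether a line is a pool or a clone, or whether its libraries come from separate cultures. The p-values therefore measure only the spread between these libraries, which may be technical.

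Wnt proteins are secreted lipid-modified glycoproteins that bind Frizzled receptors. With the co-receptors LRP5 and LRP6 they stabilize β-catenin, which then acts with TCF/LEF factors on DNA, whereas with co-receptors such as ROR1 and ROR2 ligands of the WNT5A kind act on cell polarity and movement without β-catenin. In the liver, Wnt signaling takes part in bile duct growth and repair, and its components are often altered in cholangiocarcinoma.

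Reads were counted over 1 amplicon per gene and deposited as RPM, reads scaled to a common library total. Every value could be turned back into whole reads. Reads on genes numbered 9345680 to 10551516 per HuCCT1/CD90- library and 8587634 to 9327650 per HuCCT1/CD90+ library, so that 3 reads, used as the detection floor, correspond to 0.284 to 0.349 RPM. This floor covers counting error only. THY1 had at most 1 read in any HuCCT1/CD90- library but 435, 445 and 680 reads after transduction with it, which is the direction the labels give. The summed level of 6 biliary and epithelial markers ranged from 6464 to 7342 RPM in HuCCT1/CD90- and from 8125 to 9045 RPM in HuCCT1/CD90+ with none at the floor, and EPCAM and CDH1 were higher in HuCCT1/CD90+, as was KRT19, which missed the threshold with the replicate number as a block (adjusted p = 0.14). Markers of other cell types moved with the line as well. Of 4 leukocyte markers, PTPRC and CD3E were at the floor in all libraries, while the sum of the list went from 79.9 to 99.98 RPM in HuCCT1/CD90- down to 5.25 to 6.64 RPM in HuCCT1/CD90+, with CD14 and LYZ the other members. The 4 endothelial markers summed to 14.5 to 23.2 RPM against 0.643 to 1.63 RPM with KDR at the floor, and the 5 fibroblast markers to 40.2 to 63.5 RPM against 20.4 to 24.7 RPM with none at the floor. The 4 hepatocyte markers, with ALB, TTR and CYP3A4 at the floor, did not exceed 4.28 RPM. These sums add amplicons of unequal efficiency and are set side by side only between lines. The part of these markers in the results below was not tested.

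Of the 53 Wnt genes, 6 were higher and 9 were lower in HuCCT1/CD90+ compared to HuCCT1/CD90- (adjusted p no higher than 0.05, limma on log2(RPM + 1), Benjamini-Hochberg adjustment over all 20811 genes). Over all genes, 9.41% were higher and 9.52% lower by the same rule. Many Wnt genes were not detected above the floor in either line: 12 had no read in any library, 20 were at the floor in every library, and 25 averaged 1 RPM or more over the 6 libraries. The 15 genes that differed are all among these 25, of which they make up 24% higher and 36% lower, whereas 14.4% and 15% of the 12062 genes with at least 1 RPM were higher and lower. A gene that is strong in one line only passes such a filter through that line, so these shares are given as a description. The median log2 fold change of the 25 genes was -0.077, beside -0.0086 over the genes with at least 1 RPM, and the median of its absolute value was 0.76 beside 0.39. The genes that fell include LGR6, WNT5A, FZD1 and LEF1, and those that rose WNT10A, WNT7A and TCF7L2. They are not ranked, since their order by size depends on the offset and the test, among the falls as among the rises. Without HuCCT1/CD90+ replicate 3 the 6 higher genes became 3, and with the replicate number as a block 4 genes were higher and 6 lower. DKK1, FZD1, LEF1, LGR6 and WNT5A kept their call in every alternative that tested them.

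**Figure D1:**
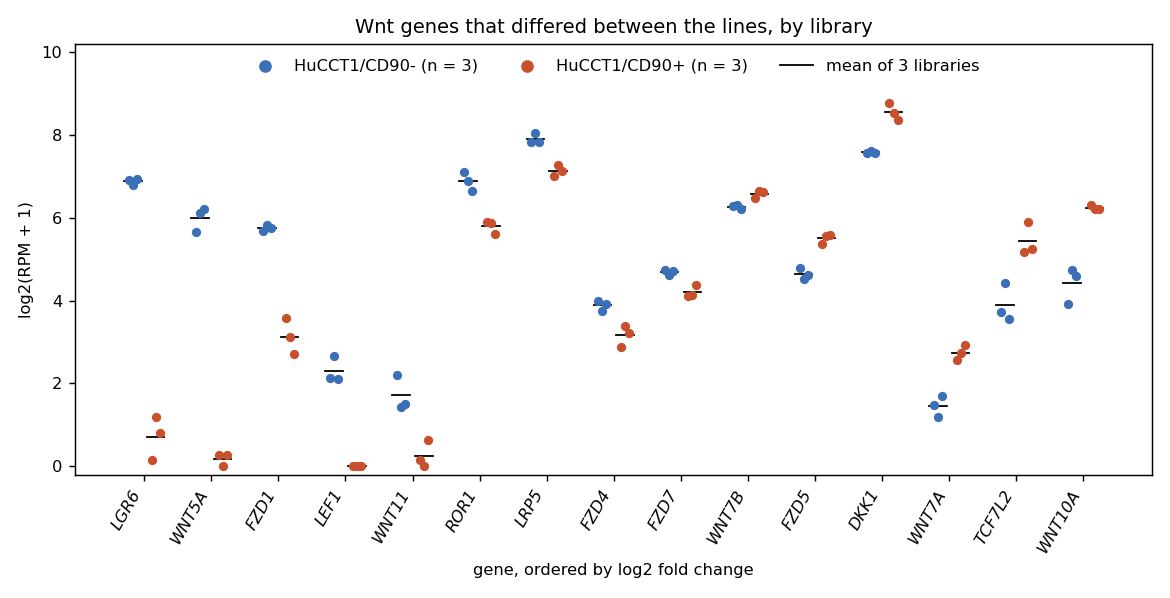
Expression of the 15 Wnt genes that differed between the lines, as log2(RPM + 1) on the vertical axis, with 1 point for each library and a bar for the mean of the 3 libraries of a line. LEF1 sits at 0 in all HuCCT1/CD90+ libraries, and WNT5A and LGR6 lie near the bottom of the axis there.

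Among the 19 ligand genes, WNT5A showed the widest difference. WNT5A, the best known ligand of the β-catenin-independent branch, lies on chromosome 3 of GRCh38 from 55465715 to 55490539 in the GENCODE annotation. WNT5A reached 49.6, 68.4 and 72.7 RPM in HuCCT1/CD90-, against 0.214, 0 and 0.217 RPM in HuCCT1/CD90+, that is, 523 to 749 reads against at most 2. Expression was therefore clear in each HuCCT1/CD90- library and at the detection floor in each HuCCT1/CD90+ library. The HuCCT1/CD90- mean of 63.5 ± 12.3 RPM (SD, n = 3) was at least 182-fold above the floor of the other line. The difference in log2(RPM + 1), a scale that understates it, was -5.81 (standard error 0.18, adjusted p = 0.00043), and over the alternatives it ranged from -3.72 with an offset of 5 RPM to -8.74 with DESeq2. In a bulk sample, fewer cells with a transcript and less transcript per cell cannot be told apart. WNT11, another ligand linked to cell movement, was weak in HuCCT1/CD90- (2.39 ± 1.05 RPM) and fell to 0.217 ± 0.288 RPM (log2 fold change -1.46, adjusted p = 0.036). This call was lost when any 1 library was left out (adjusted p from 0.058 to 0.11), with the replicate number as a block (0.11) and with offsets of 0.1 or 5 RPM. Over the alternatives of WNT11, which as for the other genes include edgeR and DESeq2, the adjusted p ranged from 7.6e-08 to 0.11 and the log2 fold change from -0.49 to -3.45.

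WNT10A went the other way. This ligand, which signals through β-catenin in skin appendages and teeth, had 14.2, 25.9 and 23.4 RPM in HuCCT1/CD90- and 78.4, 72.7 and 73.4 RPM in HuCCT1/CD90+. The lowest HuCCT1/CD90+ library lay far above the highest HuCCT1/CD90- library, and HuCCT1/CD90- replicate 1 was the lowest of all. The mean rose 3.53-fold (log2 fold change 1.82, standard error 0.24, adjusted p = 0.013). With the replicate block its adjusted p was 0.066, without any 1 of the 3 HuCCT1/CD90+ libraries it was 0.051 to 0.056, and over the alternatives it ranged from 3.0e-22 to 0.066. WNT7A rose from 1.77 ± 0.474 to 5.75 ± 0.845 RPM (3.25-fold, adjusted p = 0.012, but 0.051 without HuCCT1/CD90+ replicate 2), and in both lines it stayed a weak transcript of 12 to 61 reads. Its close relative WNT7B had 76.6, 78.4 and 73.5 RPM against 87.7, 99.4 and 97.8 RPM. These values do not overlap, but the rise was only 1.25-fold (log2 fold change 0.31, standard error 0.059, adjusted p = 0.031). It fell short of a fold of 1.5 and lost its call in 16 of the 20 alternatives, among them the block (0.090), every count-based test and 5 of the 6 fits with 1 library left out (up to 0.11), with a range of 0.016 to 0.15.

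The ligand WNT3 was not called, with 13.7, 18.0 and 12.7 RPM in HuCCT1/CD90- and 11.3, 18.2 and 11.5 RPM in HuCCT1/CD90+ (log2 fold change -0.13, 95% confidence interval from -0.77 to 0.51, adjusted p = 0.88). Replicate 2 was the highest library of WNT3 in both lines. The only other ligand with at least 1 RPM, WNT10B, did not differ at this threshold either (adjusted p = 0.71). WNT1, WNT2, WNT3A, WNT5B, WNT6, WNT8A and WNT8B had no read in any library, and WNT9B and WNT16 were at the floor. The ligands WNT2B, WNT4 and WNT9A stayed under 1 RPM in the mean, and their highest library had 1.498 RPM.

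Sequences upstream of the transcript starts are shown for the genes whose transcript was lost or raised and whose start regions either contain a searched motif or belong to a gene at the floor in HuCCT1/CD90+. RefSeq windows on GRCh38.p14, which reach from 250 bases before to 50 bases after a start, were found for 37 of the 53 genes. They were searched on both strands for the TCF/LEF core (CTTTGAT or CTTTGAA), the motif bound by the factors that β-catenin acts with, and for the E-box CACCTG, which ZEB and SNAI repressors bind. These motifs do not overlap each other here and are printed in capitals. The TCF/LEF core was in 6.86% of all 35116 windows and in that of 1 Wnt gene, DKK1, where it begins 95 bases before the start. The E-box was in 20.6% of all windows and in those of 10 Wnt genes, of which FZD5, WNT5A and WNT7A differed between the lines. Some genes have more than 1 window, so the counts of genes cannot be set against the shares of windows. WNT5A has a window for each of 2 starts, and the amplicon does not show which start was used. The LEF1 window and both WNT5A windows lie inside their genes as GENCODE places them. Both genes are on the minus strand, with outermost starts at 108168956 for LEF1 and 55490539 for WNT5A, and the regions around these were not searched. No match says only that these letters are absent from the window.
WNT5A, downstream start, minus strand, chr3:55481349-55481648: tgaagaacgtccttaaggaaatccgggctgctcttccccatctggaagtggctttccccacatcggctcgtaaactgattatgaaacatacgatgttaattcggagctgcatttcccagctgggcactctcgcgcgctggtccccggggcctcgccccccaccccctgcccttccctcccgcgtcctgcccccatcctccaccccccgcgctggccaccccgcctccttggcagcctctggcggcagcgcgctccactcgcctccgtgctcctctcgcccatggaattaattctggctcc
WNT5A, upstream start, minus strand, chr3:55487257-55487556: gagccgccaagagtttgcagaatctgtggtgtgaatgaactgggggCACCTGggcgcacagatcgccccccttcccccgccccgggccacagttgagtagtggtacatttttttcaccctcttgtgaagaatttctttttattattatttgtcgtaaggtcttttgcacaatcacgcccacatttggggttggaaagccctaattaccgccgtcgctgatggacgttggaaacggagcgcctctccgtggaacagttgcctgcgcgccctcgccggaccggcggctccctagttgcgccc
LEF1, minus strand, chr4:108166252-108166551: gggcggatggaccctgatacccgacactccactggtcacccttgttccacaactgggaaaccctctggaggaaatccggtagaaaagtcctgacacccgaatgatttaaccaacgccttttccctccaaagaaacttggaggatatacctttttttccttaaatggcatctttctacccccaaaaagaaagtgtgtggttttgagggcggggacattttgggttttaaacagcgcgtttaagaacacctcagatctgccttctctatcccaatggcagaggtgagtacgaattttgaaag
DKK1, plus strand, chr10:52314031-52314330: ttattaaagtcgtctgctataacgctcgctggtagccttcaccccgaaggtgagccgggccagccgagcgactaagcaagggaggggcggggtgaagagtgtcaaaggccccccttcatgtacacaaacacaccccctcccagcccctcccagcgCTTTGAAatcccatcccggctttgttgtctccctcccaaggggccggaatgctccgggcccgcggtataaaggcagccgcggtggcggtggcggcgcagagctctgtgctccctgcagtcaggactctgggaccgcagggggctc
FZD5, minus strand, chr2:207769857-207770156: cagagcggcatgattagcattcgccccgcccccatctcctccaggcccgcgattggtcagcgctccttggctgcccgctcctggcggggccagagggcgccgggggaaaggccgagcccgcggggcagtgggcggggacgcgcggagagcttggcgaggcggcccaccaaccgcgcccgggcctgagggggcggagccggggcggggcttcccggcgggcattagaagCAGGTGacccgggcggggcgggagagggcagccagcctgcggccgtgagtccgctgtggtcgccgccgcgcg
WNT7A, minus strand, chr3:13880022-13880321: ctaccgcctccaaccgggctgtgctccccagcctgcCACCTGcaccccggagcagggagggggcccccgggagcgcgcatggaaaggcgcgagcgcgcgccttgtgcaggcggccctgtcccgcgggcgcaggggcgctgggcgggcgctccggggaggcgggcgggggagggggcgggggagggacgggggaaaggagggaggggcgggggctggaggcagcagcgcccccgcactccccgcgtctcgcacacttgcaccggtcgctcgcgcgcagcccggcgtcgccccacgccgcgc

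Of the 10 Frizzled genes, 8 had at least 1 RPM, and of these 1 was higher and 3 were lower in HuCCT1/CD90+ (12.5% and 37.5%, beside 14.4% and 15% of all genes at that level). Frizzled proteins are the membrane receptors that bind Wnt ligands through a cysteine-rich domain. FZD1, on chromosome 7 from 91264364 to 91271326, went from 50.3, 56.1 and 53.2 RPM in HuCCT1/CD90- to 10.9, 7.69 and 5.53 RPM in HuCCT1/CD90+. The HuCCT1/CD90- values were close together and each lay far above the highest HuCCT1/CD90+ value. The mean fell 6.61-fold (log2 fold change -2.62, standard error 0.24, adjusted p = 0.0048). FZD5, a receptor of gut and other epithelia, rose from 26.5, 22.1 and 23.8 RPM to 40.5, 46.1 and 47.1 RPM, a 1.85-fold rise (log2 fold change 0.86, standard error 0.093, adjusted p = 0.0075). The adjusted p of FZD5 was 0.065 with the replicate block, the highest over its alternatives, which began at 4.0e-06.

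FZD4 and FZD7 were lower by smaller amounts. FZD7, a receptor found in many stem and tumor cells, had 25.7, 23.5 and 25.4 RPM against 16.4, 16.7 and 19.9 RPM, 1.41-fold lower (log2 fold change -0.48, standard error 0.087, adjusted p = 0.028). Its highest HuCCT1/CD90+ library, replicate 3, was near the lowest HuCCT1/CD90- library. FZD4, which in blood vessels also binds the non-Wnt ligand norrin, had 14.8, 12.4 and 14.3 RPM against 6.33, 9.55 and 8.25 RPM, 1.72-fold lower (log2 fold change -0.73, standard error 0.16, adjusted p = 0.046). FZD4 was past the threshold only narrowly: without any 1 library its adjusted p was 0.054 to 0.14, with the block 0.16, and over the alternatives it began at 0.0035. FZD7 missed the threshold without each library but HuCCT1/CD90+ replicate 3 (up to 0.097) and with the block (0.071), over a range from 0.014.

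FZD8 had 18.3, 23.6 and 12.1 RPM in HuCCT1/CD90- and 9.43, 13.4 and 11.0 RPM in HuCCT1/CD90+. The lines overlapped and the log2 fold change of -0.60 was not called (standard error 0.28, adjusted p = 0.25), although it passed in all 4 count-based tests and among genes with at least 10 RPM, over a range from 0.0077 to 0.48. FZD2 had 10.1, 12.4 and 15.7 RPM against 11.4, 9.55 and 15.3 RPM (log2 fold change -0.077, 95% confidence interval from -0.71 to 0.55, adjusted p = 1.0). FZD6 had means of 6.66 and 6.94 RPM and was not called (adjusted p = 1.0). FZD3, with means of 1.501 and 3.85 RPM, was not called (log2 fold change 0.99, adjusted p = 0.12), but with the replicate block its adjusted p was 0.047. FZD3 was not followed in the other alternatives. FZD9 and FZD10 were at the floor.

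The co-receptors differed among themselves. LRP5, which with a Frizzled and a Wnt ligand starts the β-catenin branch, had 227, 264 and 226 RPM in HuCCT1/CD90- and 128, 155 and 139 RPM in HuCCT1/CD90+, with 1194 reads or more in each library. All HuCCT1/CD90+ libraries were lower, and the mean fell 1.70-fold (log2 fold change -0.76, standard error 0.10, adjusted p = 0.013, or 0.058 without HuCCT1/CD90+ replicate 3). LRP6, which has the same role, had 66.8, 100.04 and 104 RPM against 108, 82.2 and 110 RPM. Its lines overlapped (log2 fold change 0.16, 95% confidence interval from -0.45 to 0.78, adjusted p = 0.78). ROR1, a receptor tyrosine kinase-like protein that binds WNT5A and is raised in several cancers, had 136, 117 and 100.2 RPM in HuCCT1/CD90- and 58.3, 57.9 and 48.1 RPM in HuCCT1/CD90+. The mean fell 2.15-fold (log2 fold change -1.08, standard error 0.15, adjusted p = 0.013, or 0.052 without HuCCT1/CD90- replicate 2). Its relative ROR2 had no read in any library.

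LGR6 went from a clear signal to near the floor. LGR4 and LGR6 are receptors of R-spondins, secreted proteins that raise Wnt signaling by removing the ligases RNF43 and ZNRF3 from the cell surface. LGR6, on chromosome 1 from 202193901 to 202319781, had 119, 110 and 123 RPM in HuCCT1/CD90-, that is, 1027 to 1263 reads, and 0.107, 1.28 and 0.760 RPM in HuCCT1/CD90+, that is, 1, 11 and 7 reads. It was near the floor in HuCCT1/CD90+ but above it in replicates 2 and 3. The mean fell from 117 ± 6.58 to 0.716 ± 0.588 RPM, 164-fold (log2 fold change -6.17, standard error 0.29, adjusted p = 0.00098). The size of this fold rests on few reads: without HuCCT1/CD90+ replicate 2 it was 271-fold, and the log2 fold change ranged from -4.42 to -7.55 over the alternatives. LGR4 was not called, with 37.0, 32.5 and 37.3 RPM against 37.4, 33.3 and 36.6 RPM. Its log2 fold change was 0.0068, with a 95% confidence interval from -0.20 to 0.21 (adjusted p = 1.0).

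DKK1 was the only one of the 8 DKK and SFRP genes, which encode secreted antagonists, with at least 1 RPM. It binds LRP5 and LRP6 and blocks the β-catenin branch. DKK1, on chromosome 10 from 52314296 to 52318042, had 189, 195 and 189 RPM in HuCCT1/CD90- and 437, 369 and 331 RPM in HuCCT1/CD90+. The HuCCT1/CD90- libraries were nearly equal, while those of HuCCT1/CD90+ spread more widely above them. The mean rose 1.98-fold (log2 fold change 0.98, standard error 0.11, adjusted p = 0.0085). Of the other 7 genes, DKK2, SFRP1, SFRP2, SFRP4 and SFRP5 were at the floor in every library, and DKK3 and DKK4 were above the floor in at least 1 library with means under 1 RPM.

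Of the 6 genes for inhibitors inside the cell or at its membrane none was called, and only 2, AXIN1 and ZNRF3, had at least 1 RPM. AXIN1, a scaffold of the complex that degrades β-catenin, had 32.6, 30.0 and 27.9 RPM against 24.8, 32.4 and 30.6 RPM (log2 fold change -0.049, 95% confidence interval from -0.38 to 0.28, adjusted p = 0.97). AXIN2, its Wnt-induced relative and a common readout of β-catenin activity, had at most 3 reads in any library, and RNF43 had none. ZNRF3, a ligase that removes Frizzled proteins from the membrane, was not called (adjusted p = 0.79), and NKD1 and NKD2, inhibitors of the Dishevelled proteins, had means under 1 RPM.

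The TCF/LEF factors changed in both directions. LEF1 had 36, 50 and 34 reads (3.41, 5.35 and 3.30 RPM) in HuCCT1/CD90- and no read in any HuCCT1/CD90+ library. Set against the floor of the other line, its level fell at least 11.5-fold (log2 fold change -2.30, standard error 0.17, adjusted p = 0.0027), on a scale that understates the change of weak genes. The log2 fold change of LEF1 ranged from -0.84 with an offset of 5 RPM to -8.26 in edgeR. TCF7L2, the main TCF factor of gut epithelium, had 12.1, 20.7 and 10.9 RPM against 35.3, 58.6 and 37.2 RPM. All HuCCT1/CD90+ libraries were higher, with replicate 2 the highest of each line. The mean rose 3.00-fold (log2 fold change 1.54, standard error 0.33, adjusted p = 0.043). The call held without HuCCT1/CD90- replicate 2 (0.043) but not without any 1 of the other 5 libraries, where the adjusted p reached 0.13, over a range from 7.5e-15 to 0.13. TCF7 had a mean under 1 RPM and TCF7L1 was at the floor.

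**Figure D2:**
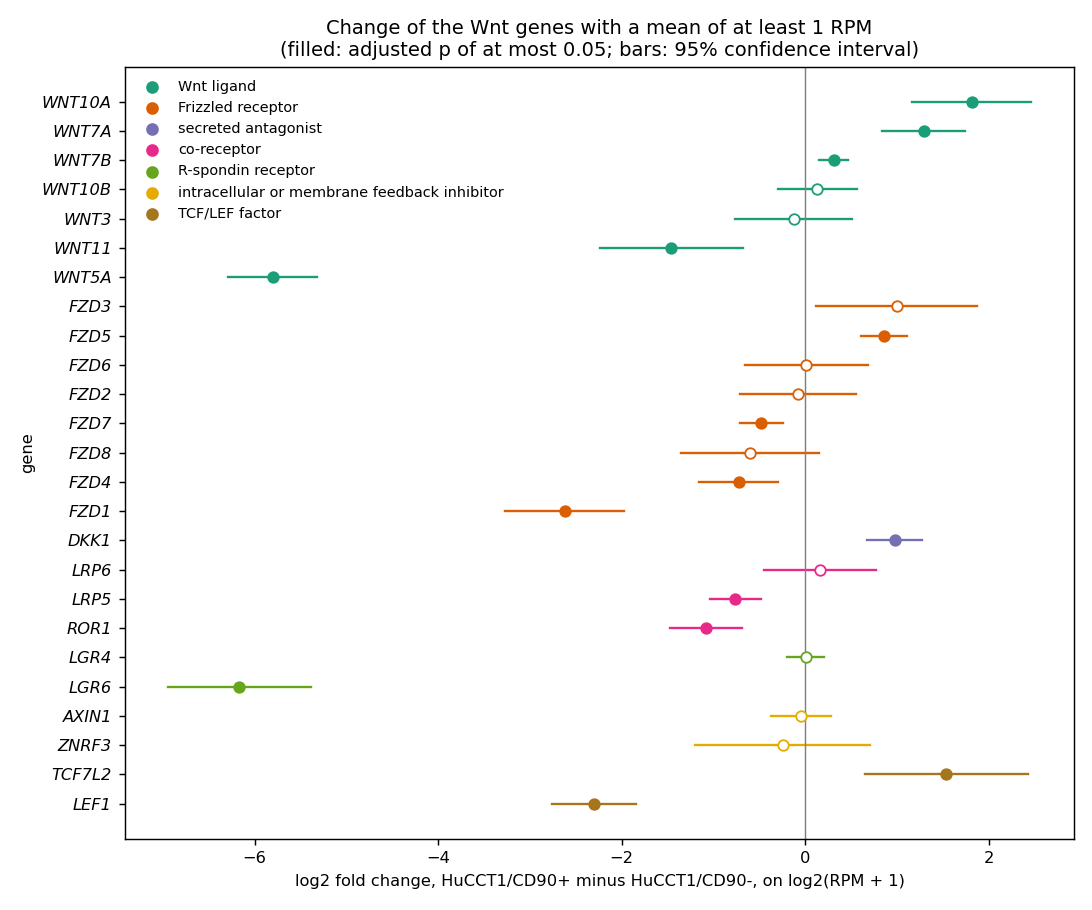
Log2 fold change between the lines (HuCCT1/CD90+ minus HuCCT1/CD90-) for the 25 Wnt genes that averaged 1 RPM or more, on the horizontal axis, with 95% confidence intervals as bars and colors for the role of each gene. Filled points mark an adjusted p no higher than 0.05. LGR6 (-6.17) and WNT5A (-5.81) stand far to the left, while no gene rose by more than 1.82.

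The reads of some of these genes may be shared. GENCODE 29 places a gene on the other strand over part of DKK1, FZD4, LEF1, ROR1, TCF7L2, WNT11 and WNT5A, and the sources used here do not say whether strand was used in counting. The position of the amplicons is also not given, so a value can rest on the isoforms that contain the amplicon. Levels of the Wnt genes are compared between lines for 1 gene at a time and not between genes, since amplicons differ in efficiency.

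The other genes of the pathway were taken from 4 lists of 103 measured genes in all, some of them in more than 1 list, with 1 listed gene, ASCL2, not found. Of these, 19 were higher and 19 lower in HuCCT1/CD90+, beside 9.41% higher and 9.52% lower over all genes. Of the 72 genes with at least 1 RPM, 23.6% were higher and 26.4% lower, beside 14.4% and 15% of all genes at that level, with a median log2 fold change of -0.055. These shares are a description, since the filter lets a gene pass through one line alone. With only genes of at least 1 RPM tested, 44 of the 72 were called, beside 5028 of all 12062. The 38 calls became 22 without HuCCT1/CD90- replicate 3 and 23 without HuCCT1/CD90+ replicate 2 or without HuCCT1/CD90+ replicate 3. Of 21 genes for Wnt secretion and extracellular modulators, 5 were lower and none higher, all among the 8 with at least 1 RPM (62.5% lower, beside 15% of all genes at that level). SERPINF1, the gene of the secreted factor PEDF, fell from 16.5 ± 1.65 to 0.480 ± 0.273 RPM, and the other 4, named here after their values were seen, were FRZB, SOSTDC1, RECK and the gene listed as GPR124 (ADGRA2). FRZB and SOSTDC1 encode secreted Wnt antagonists, while RECK and ADGRA2 proteins together help WNT7A and WNT7B act on FZD receptors. With the replicate block RECK missed the threshold (adjusted p = 0.097) and PORCN, not called otherwise, passed it as lower (0.047). The median log2 fold change was 0 over all 21 genes of this list, of which 12 were at the floor in every library. Over the 8 with at least 1 RPM it was -1.51, but FRZB, SERPINF1 and SOSTDC1 are among those that reach that level only through the line in which they are high.

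Of 35 genes of the β-catenin machinery, 5 were higher and 5 lower. At 1 RPM or more 14.3% of the list were higher and 17.9% lower, near the 14.4% and 15% of all genes at that level, so the counts do not set the list apart and the values are those of single genes. CTNNB1, the gene of β-catenin, fell from 929 ± 84.9 to 455 ± 33.7 RPM, 2.04-fold (log2 fold change -1.03, adjusted p = 0.0048). The corepressor gene TLE4 fell 15.3-fold, from 37.4 to 2.44 RPM, and TLE3 fell 1.71-fold. TNIK, a kinase that binds TCF7L2, and CXXC5, a Dishevelled inhibitor, were lower by 1.56-fold and 1.94-fold. GSK3B, the kinase that marks β-catenin for degradation, rose from 36.0 ± 6.34 to 74.6 ± 3.34 RPM, 2.07-fold (adjusted p = 0.015), and its relative GSK3A rose 1.76-fold. DVL3, a Dishevelled gene, rose from 47.7 to 66.8 RPM. CSNK1A1 and TLE2 were the other 2 genes that rose, and are named here after their values were seen. With the replicate block CSNK1A1, CXXC5, DVL3, GSK3A and TNIK missed the threshold, with adjusted p-values from 0.055 to 0.10, and 2 genes were higher and 3 lower.

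Of 23 genes known as targets of β-catenin in one tissue or another, 6 were higher and 2 lower, all among the 13 with at least 1 RPM (46.2% and 15.4%, beside 14.4% and 15% of all genes at that level). Cyclin D1 (CCND1) rose from 438 ± 65.6 to 948 ± 1.80 RPM, 2.17-fold. EPHB3, a receptor that sorts cells in the gut crypt, rose from 0.463 to 16.0 RPM, CD44 from 1.67 to 14.7 RPM and the nuclear receptor gene PPARD from 51.2 to 148 RPM. JAG1, a Notch ligand gene, rose 1.38-fold. BAMBI, which encodes a decoy receptor for TGF-β, fell from 16.0 to 2.60 RPM, and BMP4 fell 1.94-fold. With the block JAG1 and BMP4 missed the threshold (adjusted p-values of 0.062 and 0.086) and MYC, not called otherwise, passed it as higher (0.037), so that 6 genes were higher and 1 lower. The median log2 fold change was 0.058 over all 23 targets, of which 9 were at the floor in every library, among them LGR5, NOTUM and APCDD1. Over the 13 with at least 1 RPM it was 0.75, but EPHB3 and TNFRSF19 reach that level only through the line in which they are high.

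Of 29 genes of planar polarity and other β-catenin-independent signaling, 8 were higher and 7 lower. Of the 23 with at least 1 RPM, 30.4% were higher and 30.4% lower, beside 14.4% and 15% of all genes at that level. NFATC2, a transcription factor controlled by calcium, rose from 0.853 ± 0.611 to 48.9 ± 9.52 RPM and PLCB4, a phospholipase, from 0.887 ± 0.329 to 25.8 ± 6.77 RPM. RYK, a receptor of WNT5A, rose 1.57-fold, while PTK7, a polarity receptor, fell from 66.6 ± 4.83 to 25.5 ± 0.809 RPM. The polarity genes PRICKLE2, CELSR2 and CELSR3 fell 3.16-fold, 2.24-fold and 2.08-fold, and NFATC3 fell 1.78-fold. CELSR2, NFATC3 and RYK missed the threshold with the block, with adjusted p-values from 0.079 to 0.089. So did FUZ, NFATC4, RAC1 and VANGL2, which were called as higher without it, with adjusted p-values from 0.051 to 0.12. With the block 4 genes of the list were higher and 5 lower, among them DAAM1, which was not called otherwise (0.048, higher). PTK7 and ROR1 were lower, and RYK higher, in the line in which WNT5A was at the floor.

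**Figure D3:**
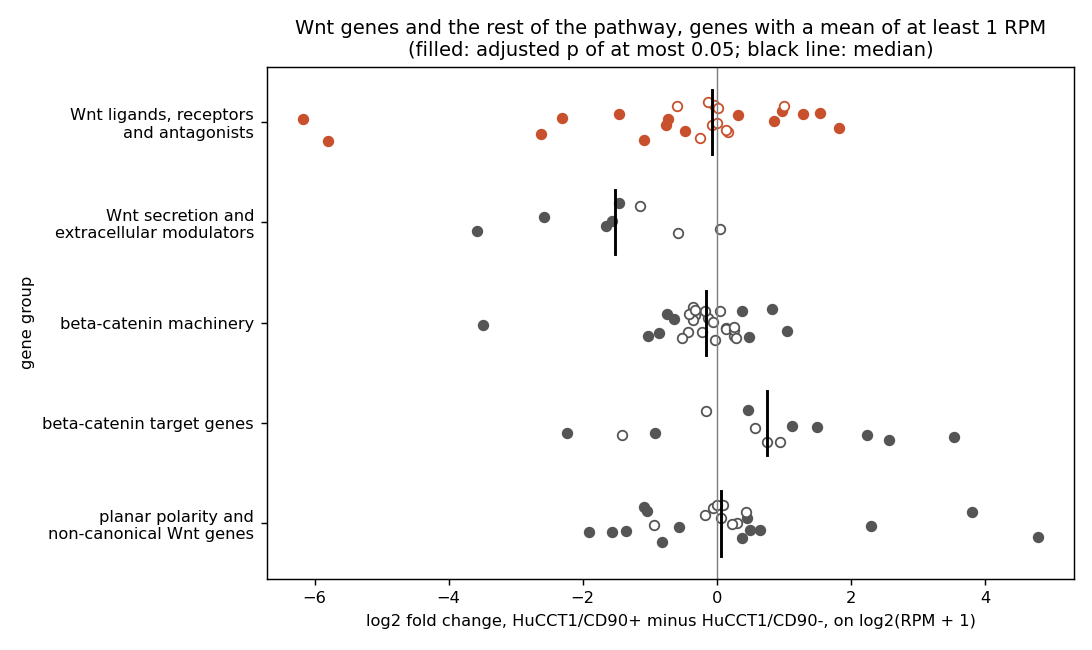
Log2 fold change between the lines for the Wnt genes and for 4 lists of other pathway genes, with 1 point for each gene that averaged 1 RPM or more, filled where the adjusted p was no higher than 0.05, and a black line for the median of each group. The medians are -0.077 for the Wnt genes, -1.51 for secretion and extracellular modulators, -0.16 for the β-catenin machinery, 0.75 for β-catenin targets and 0.061 for planar polarity and non-canonical genes. Some genes reach 1 RPM only through the line in which they are high. Over all 21 genes for secretion and extracellular modulators the median was 0.

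Each Wnt gene was also set beside its neighbours, taken as the 50 closest genes of the chromosome that averaged 10 RPM or more, by their median log2 fold change (GENCODE 29 positions, found for 93.7% of such genes). For the 25 Wnt genes with at least 1 RPM this median ranged from -0.31 around LGR6 to 0.62 around FZD1. FZD1 fell by 2.62 on the log2 scale where its neighbours had a median of 0.62, LEF1 fell by 2.30 where they had 0.33, and LRP5 fell by 0.76 where they had 0.26. ROR1, with -1.08, lay among genes with -0.29, so that a difference of -0.79 was left. Of the 15 Wnt genes that differed, 8 moved against the median of their neighbours. The part of the neighbourhood in these differences was not tested.

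**Figure D4:**
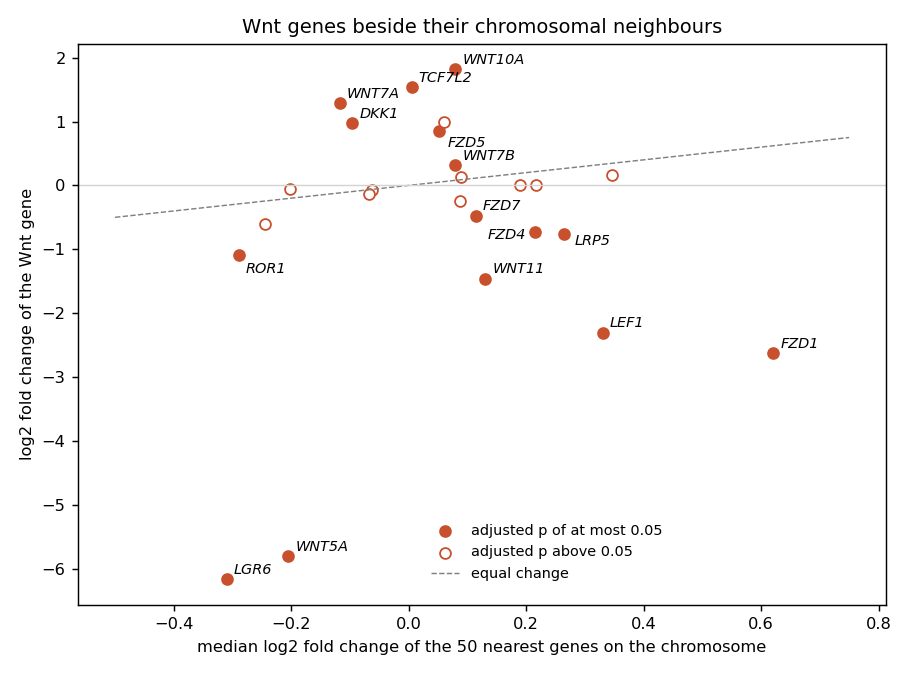
Log2 fold change of the 25 Wnt genes that averaged 1 RPM or more (vertical axis) against the median of their 50 neighbours on the chromosome (horizontal axis), with points filled where the adjusted p was no higher than 0.05 and a dashed line for equal change. FZD1 lies at the lower right, beside neighbours at 0.62, and LGR6 and WNT5A lie far below the dashed line.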

How the data were processed

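Total RNA was reverse-transcribed and amplified with an AmpliSeq panel of 1 amplicon per gene. The authors obtained read counts with the ampliSeqRNA plugin, and the deposited values are RPM, scaled to the same total in each library. Per the submitters' processing notes the build was hg19 and the software Transcriptome Analysis Console. The table holds 20811 genes and no filter on low values. Duplicated libraries were looked for with a chi-square test of the reads, and all pairs differed.

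The study's methods name limma's eBayes. Values were taken to log2(RPM + 1) and tested in R 4.3.3 with limma 3.58.1 over all genes and all 6 libraries, without a replicate block, two-sided, with Benjamini-Hochberg adjustment over all genes. Each single adjusted p is from limma, while ranges over the alternatives also hold p-values of edgeR and DESeq2. This offset understates the change of weak genes, and genes without any read, which were kept, enter limma's estimate of the spread. A fold is the ratio of the mean RPM of the lines. It is given as a lower bound, against the highest floor of the line (3 reads), where every library of that line was at or under it. Recovered reads (whole multiples of the value of 1 read within 0.0006 RPM) were tested with edgeR 4.0.16 and DESeq2 1.42.0 as alternatives. The procedures were also run on simulated data, for which no outcome is given here.

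Replicate numbers were checked for pairing: the deviations of same-numbered libraries from their line means correlated with r = 0.21, 0.32 and 0.18 over all genes, and differently numbered ones with r from -0.29 to 0.071. On this basis only, libraries of the same number were treated as pairs, and the replicate block was added to the model in one alternative. The other alternatives were offsets of 0.1 and 5 RPM, minimum means of 1 and 10 RPM, quantile normalization, median centring, trend and robust eBayes, each library left out, and a fold change of 1.5 with an adjusted or unadjusted p of at most 0.05.

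The rule named all called genes, those with a mean of at least 10 RPM, and, of the other pathway lists, up to 8 called genes per list with at least 10 RPM in one line. FZD3, FZD6, WNT10B, ZNRF3, TNFRSF19, FUZ, NFATC4, RAC1, VANGL2, and genes of the other lists that are at the floor or gained a call with the block, fall outside it. They were named after their values were seen. The gene group and the lists were chosen with earlier results of these data known. Genes listed under an older symbol were matched through RefSeq synonyms. Some cell type marker genes are not reported here.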

Additional observations from a re-analysis of the deposited data

How the results depend on the processing

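No called Wnt gene changed direction under the 20 alternatives, while 5 of the 6 uncalled Wnt genes that averaged 10 RPM or more did. Uncalled genes under that level were followed only with the replicate block. The log2 fold change of LGR4 was -0.020 with quantile normalization and with median centring. With 1 library left out it ranged from -0.055 to 0.056 for LGR4, from -0.12 to 0.062 for AXIN1, from -0.25 to 0.073 for FZD2, from -0.041 to 0.29 for LRP6 and from -0.34 to 0.011 for WNT3. The fold of the means without each library was added after seeing the data. Without 1 library, 3 to 5 Wnt genes were higher and 6 to 7 lower, 22 to 30 of the other pathway genes were called, and the log2 fold change of THY1 ranged from 5.60 to 5.93. The replicate block treats libraries of the same number as pairs, which the labels do not state. With it, 4 Wnt genes were higher and 6 lower, and 26 other pathway genes were called. WNT10A, WNT7B, WNT11, FZD4, FZD5 and FZD7 missed the threshold with the block, while FZD3 passed it. The cause was not tested. Over all genes 3939 were called, 2729 with the block and 2197 to 2932 without 1 library, a fit with fewer samples. The count-based tests called 5326 to 5735 genes, and 6 higher and 10 lower Wnt genes. In these tests, and in limma over genes with at least 1 RPM, WNT7B lost its call while the number of higher Wnt genes stayed at 6. Another Wnt gene, not followed here, was therefore called in its place. Genes near the floor, such as WNT11 and LEF1, are limited by depth.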
